A study of Drosophila melanogaster with 2 samples.

Results

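The genes described here are the 54 protein-coding genes of Drosophila melanogaster whose symbols start with eIF, eEF or eRF, the translation initiation, elongation and release factors, among 13945 protein-coding genes of the Ensembl annotation on the 6 chromosomes X, 2L, 2R, 3L, 3R and 4. They comprise 44 initiation, 8 elongation and 2 release factor genes, and the rule that picks them uses the symbol and no measured value. Binding of the CG7271 protein was mapped by chromatin immunoprecipitation and sequencing (ChIP-seq) in whole embryos 0 to 4 hours old. The embryos came from a stable transgenic line, strain CG7271, that carries CG7271 with GFP at its C-terminus, and the description states that GFP was the target of the antibody, whereas the antibody label gives CG7271. Both libraries, biological replicates 2 and 3, belong to this 1 group, so the design holds no comparison between conditions, and the promoter that drives the fusion is not given in the labels. Whole embryos hold many cell types, which these data cannot tell apart. Promoter peak here means a peak whose summit lies no more than 500 bp from an annotated transcription start site (TSS) of the gene, and positions upstream of the TSS are negative. The authors gave each peak a signal without stating its scale, so lists are compared by rank (1 for the highest signal). The replicate lists and the list from both replicates together (the pooled list) hold 30000 peaks each. The list thresholded by irreproducible discovery rate (IDR), a measure of how alike replicates rank their peaks, holds 2445 peaks. These are the 2445 pooled peaks of highest signal, down to a signal of 115.4. A single peak in the IDR list can still rank unequally in the replicates.

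Initiation factors bring the small ribosomal subunit, the initiator tRNA and the capped messenger RNA together. eIF2 carries the initiator tRNA, eIF2B recharges eIF2 with GTP, eIF3 is the large scaffold on the small subunit, and the eIF4 proteins bind the cap and unwind the message. Elongation factors deliver aminoacyl-tRNAs and move the ribosome along, and release factors end the chain at a stop codon. In the first hours of fly development the embryo translates mainly messages that the mother stored in the egg, before its own genome takes over.

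The sequences below are start sites and summit windows of 6 genes with an IDR summit, shown for the motifs and shared starts described, read from the RefSeq copy of dm6 and printed 5′ to 3′ on the strand of the named gene. The windows of eEF1gamma (chr3R:29220072-29220201, plus strand), eIF4A (chr2L:5981664-5981793, plus strand) and eIF3a (chr3R:4433866-4433964, minus strand) hold the DNA replication-related element TATCGATA and end 30 bases into the transcript. The TSS is base 70 in the window of eIF3a, and in those of eEF1gamma and eIF4A it follows the first 100 bases. The 30 bases at the TSS of eEF2 (chr2L:21682102-21682131, minus strand, TSS at base 16) hold CTTT, the core letters of the TCT initiator of translation genes. The windows of eIF4EHP (chr3R:24109126-24109226, minus strand) and eIF1 (chr3L:3222942-3223042, plus strand) are centred on the highest summit of each gene. The eIF4EHP window lies between divergent starts, and the eIF1 window reaches 19 bases into the transcript of its neighbour RpL28. The eIF4A summit is base 33 of its window, whereas the eIF3a summit lies 5′ and the eEF2 summit 3′ of the bases shown. Capitals mark TATCGATA, CANCNCTA (core promoter motif 7), TATAAA and AAATAAAT in either orientation, and CTTT where its C lies within 5 bp of the TSS.
eEF1gamma: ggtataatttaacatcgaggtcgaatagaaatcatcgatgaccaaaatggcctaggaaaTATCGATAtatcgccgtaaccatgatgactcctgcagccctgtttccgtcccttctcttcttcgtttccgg
eIF4A: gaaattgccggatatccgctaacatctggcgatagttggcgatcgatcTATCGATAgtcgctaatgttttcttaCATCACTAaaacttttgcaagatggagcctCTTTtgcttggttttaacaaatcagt
eIF3a: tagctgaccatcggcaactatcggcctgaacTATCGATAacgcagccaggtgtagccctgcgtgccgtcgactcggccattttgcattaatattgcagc
eEF2: gtcgctgcagcgcctcgctCTTTcctgtcg
eIF4EHP: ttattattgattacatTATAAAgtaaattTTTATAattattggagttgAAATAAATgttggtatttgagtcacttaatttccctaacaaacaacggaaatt
eIF1: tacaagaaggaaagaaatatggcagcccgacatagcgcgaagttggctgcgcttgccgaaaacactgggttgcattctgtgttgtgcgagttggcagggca

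CG7271 peaks were found near the starts of most translation factor genes, and the strong ones lay at a minority of them. Of the 54 genes, 11 (20.4%, exact 95% interval 10.6 to 33.5%) had an IDR summit at a promoter, against 12.0% of all protein-coding genes. The interval holds the value for all genes. In the pooled list 42 of 54 (77.8%, interval 64.4 to 88%) had a promoter summit, against 54.2% of all protein-coding genes. By replicate, 39 had one in replicate 2 and 43 in replicate 3, where the share of all protein-coding genes was 53.3% in each list. In both replicate lists 36 of 54 (66.7%) had one, against 43.6% of all protein-coding genes. The number of annotated starts differed among the genes: of 32 members with 1 TSS 5 had an IDR summit, against 9.53% of protein-coding genes with 1 TSS, and of 22 with over 1 TSS 6 had one, against 19% of such genes. Intervals cover counting error of genes only, and neighbours with a common summit count more than once.

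By step of translation, IDR promoter summits lay at 4 of 8 elongation factor genes, 7 of 44 initiation factor genes and 0 of 2 release factor genes, against 12.0% of all protein-coding genes. Pooled promoter summits lay at 8 of 8, 32 of 44 and 2 of 2, against 54.2%. Median pooled signals of the highest promoter summit were 130.9 for elongation and 79.4 for initiation factor genes with a summit, and 75.33 over all protein-coding genes with one. For the 11 members in the IDR list the median rank was 545, and for all 1678 protein-coding genes in it 1151. In replicate 2 the median rank of the highest promoter summit was 3675 for members and 6486 for all protein-coding genes with one. The replicates differed here, since in replicate 3 these medians were close, at 6200 and 6400.

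**Figure D1:**
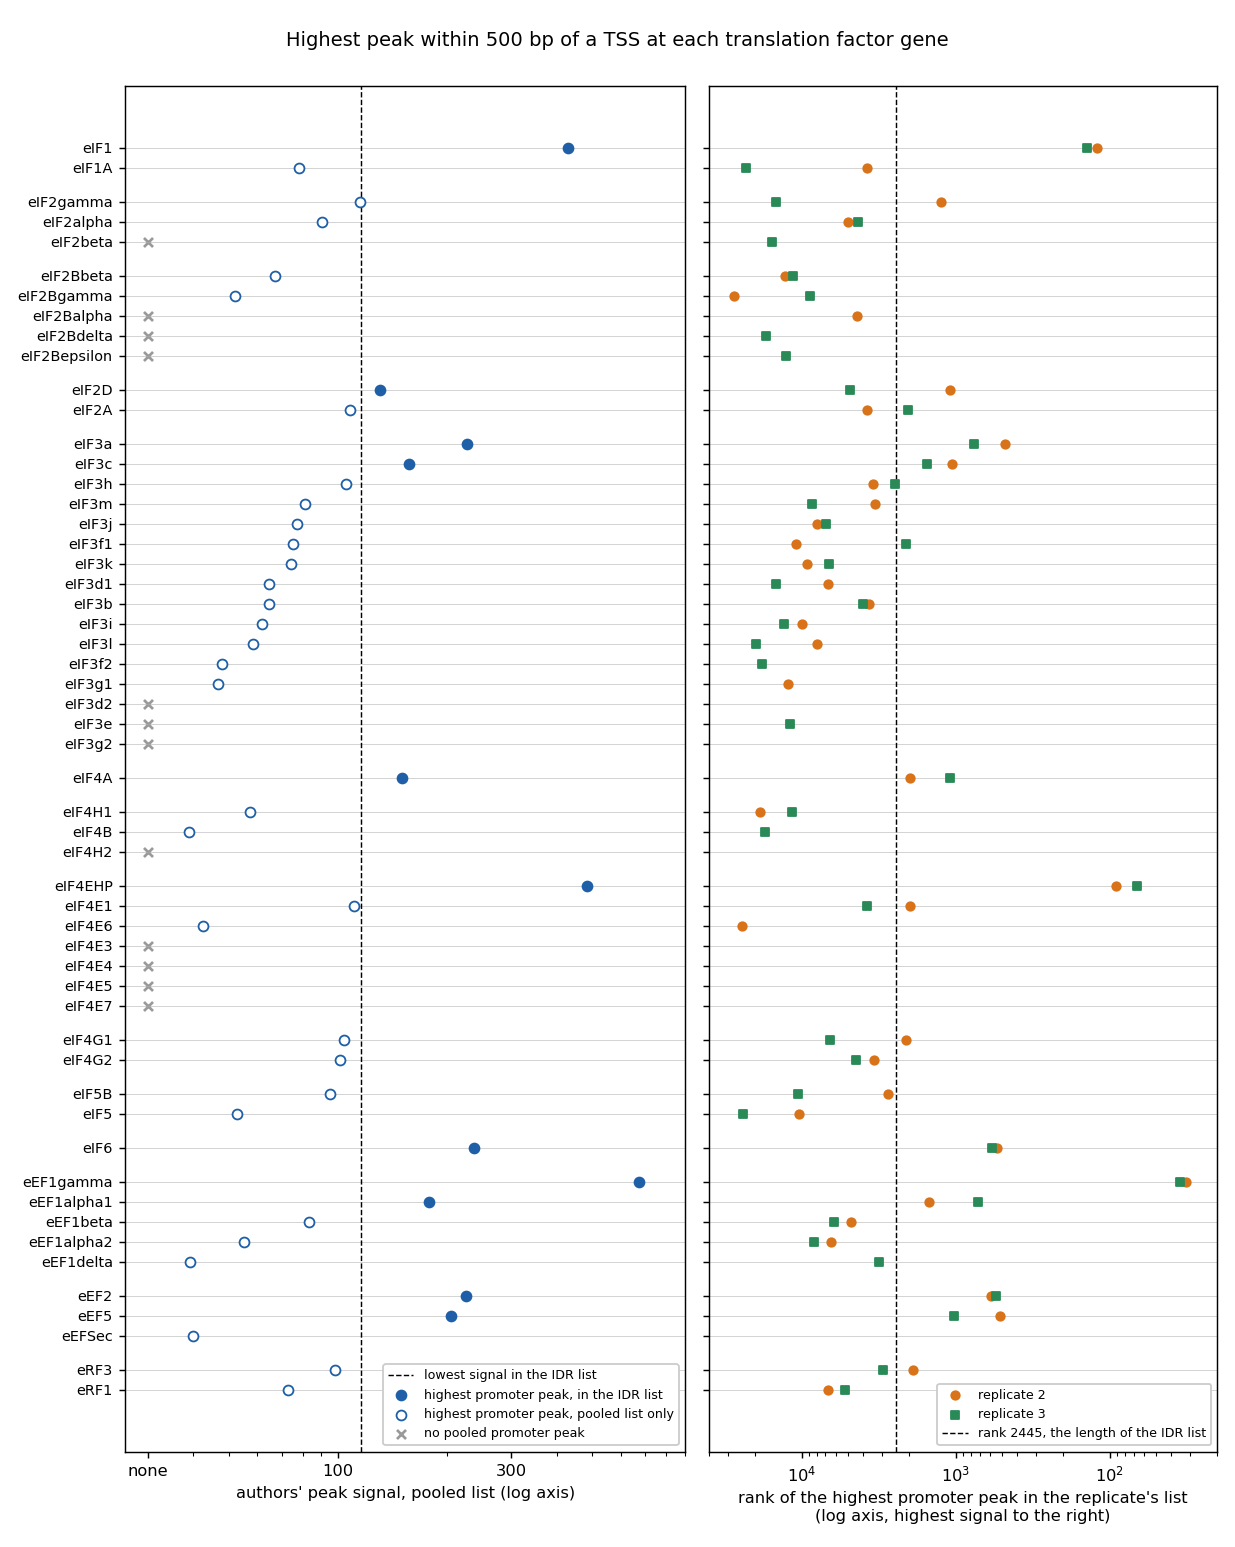
Highest promoter peak at each of the 54 genes, grouped by factor: authors' signal in the pooled list on a log axis (left; filled points are in the IDR list, crosses have no pooled promoter peak, the dashed line is the lowest IDR signal of 115.4) and rank in each replicate on a log axis (right). Points for eEF1gamma, eIF4EHP and eIF1 lie farthest to the right in both panels, and 12 genes have a cross.

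Among the elongation factors, the highest peak was at eEF1gamma (3R, 29219971 to 29220296), whose product is a subunit of the complex that recharges eEF1alpha with GTP. Its signal was 392.1 in replicate 2 (rank 32), 267.8 in replicate 3 (rank 35) and 673.4 in the pooled list (rank 29). The pooled summit lay at -4 bp, 16 bp from the replicate 2 summit and 1 bp from the replicate 3 summit, so all lists put it at the start of the gene. The other subunit genes of that complex were lower in the pooled list, with eEF1beta at a signal of 83.4 (rank 4995) and eEF1delta at 39.1 (rank 27633). eEF1delta had no promoter summit in replicate 2, but in replicate 3 it had 42.9 (rank 3148), above eEF1beta with 31.6 (rank 6200).

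The gene eEF2 (2L, 21681909 to 21682288), which encodes the GTPase that moves the ribosome by a codon, had signals of 129.9 in replicate 2 (rank 593) and 96.5 in replicate 3 (rank 549). Its pooled signal was 225.2 (rank 545), with the summit 17 bp downstream of the TSS in the 5' UTR. eEF5 (2R, 24057673 to 24058052), the hypusine-bearing factor long called eIF5A, had 137.0 in replicate 2 (rank 516), 72.4 in replicate 3 (rank 1026) and 204.9 in the pooled list (rank 678), with the summit 10 bp downstream. Both summits lay just inside the transcript, and each replicate placed the gene among its 2445 highest peaks.

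eEF1alpha1 (2R, 11891888 to 11892267), one of the genes for the GTPase that delivers aminoacyl-tRNAs, had 88.1 in replicate 2 (rank 1493), 85.1 in replicate 3 (rank 713) and 178.4 in the pooled list (rank 917). Its summit lay at -44 bp from an internal start, in an annotated intron of the gene, and with 1 TSS per gene it was no longer a promoter peak. The paralogue eEF1alpha2 had a pooled signal of 55.1 (rank 12709) and no IDR summit. eEFSec, the factor for selenocysteine, had 39.9 in the pooled list (rank 26578), at -387 bp from its TSS and 18 bp from one of Acox57D-p, and no promoter summit in either replicate.

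Of 7 genes for cap-binding proteins, 1 lay at the second highest member peak, which it shares with another gene. No promoter summit in any list was found for 4 of the 7, against 36% of all protein-coding genes. eIF4EHP encodes a cap-binding protein that blocks translation, in the embryo that of caudal messages together with Bicoid. Its peak (3R, 24109064 to 24109305) had signals of 271.4 in replicate 2 (rank 91), 217.2 in replicate 3 (rank 67) and 485.4 in the pooled list (rank 73). The summit was at -216 bp from eIF4EHP and -160 bp from CG18428, whose start lies 376 bp away on the opposite strand, so the peak cannot be given to either gene alone. eIF4E1, the general cap-binding factor, had 78.7 in replicate 2 (rank 1965), 39.7 in replicate 3 (rank 3775) and 110.7 in the pooled list (rank 2679), just short of the IDR list. Of the other eIF4E genes, eIF4E6 had a pooled signal of 42.6 (rank 23025) and no promoter summit in replicate 3. eIF4E3, a factor of spermatogenesis, and eIF4E4, eIF4E5 and eIF4E7 had none in any list.

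eIF4A, the RNA helicase of the cap complex, was besides eIF4EHP the only eIF4 gene in the IDR list. Its peak (2L, 5981506 to 5981885) had 78.6 in replicate 2 (rank 1972), 70.2 in replicate 3 (rank 1094) and 149.8 in the pooled list (rank 1358), with the summit at -68 bp. The scaffold genes eIF4G1 and eIF4G2 had pooled signals of 104.1 (rank 3096) and 101.2 (rank 3306), and both had a promoter summit in each replicate. The pooled summit of eIF4G2, at -31 bp, was equally near to a TSS of CG33111, so it cannot be given to eIF4G2 alone. The helicase cofactor genes were lower, with eIF4H1 at 57.4 (rank 11487), eIF4B at 39.0 (rank 27894) and no promoter summit for eIF4H2 in any list.

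The 16 genes for eIF3 subunits had 2 IDR, 13 pooled and 11 double-replicate promoter peaks, where the shares of all protein-coding genes were 12.0%, 54.2% and 43.6%. Their pooled signals ran from 46.7 to 226.1 with a median of 74.3. eIF3a (3R, 4433788 to 4434167) had 141.8 in replicate 2 (rank 476), 82.8 in replicate 3 (rank 763) and 226.1 in the pooled list (rank 541). Its summit lay at -83 bp from eIF3a and 13 bp inside CG1074, on the opposite strand, in the 5' UTR of CG1074. eIF3c (2R, 17665566 to 17665945) had 100.9 in replicate 2 (rank 1052), 60.4 in replicate 3 (rank 1529) and 156.4 in the pooled list (rank 1238), at -3 bp from a TSS. In replicate 3 the summit nearest to the pooled one was a lower peak (36.8, rank 4430) 78 bp away.

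Of the other eIF3 genes, eIF3h came closest to the IDR list, with 63.2 in replicate 2 (rank 3422), 48.1 in replicate 3 (rank 2462) and 105.4 in the pooled list (rank 3000), and its summit was also within 500 bp of senju. The highest pooled peaks of eIF3b and eIF3l were nearer to other genes, 14 bp from a TSS of Patronin and 35 bp from one of Nrx-IV. eIF3d2, eIF3e and eIF3g2 had no pooled promoter summit, and of these eIF3e had one in replicate 3 (signal 23.8, rank 11823).

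None of the 3 genes of eIF2 or the 5 of its exchange factor eIF2B had an IDR summit, against 12.0% of all protein-coding genes. eIF2gamma had 93.9 in replicate 2 (rank 1253), 21.7 in replicate 3 (rank 14630) and 115.2 in the pooled list, at rank 2453 just outside the IDR list. The replicate 3 value came from a different summit, at -337 bp from a TSS, whereas the pooled and replicate 2 summits lay at -20 and -19 bp. The pooled summit was also within 500 bp of starts of Su(var)3-9, a histone methyltransferase gene, and of Set. The nearest of these starts was 20 bp away, as near as that of eIF2gamma, so the peak cannot be given to eIF2gamma alone. eIF2alpha, the subunit whose phosphorylation lowers initiation, had a pooled signal of 90.2 (rank 4243), and eIF2beta had a promoter summit in replicate 3 only (21.1, rank 15590). Of the 5 eIF2B genes, eIF2Bbeta (66.9, rank 8093) and eIF2Bgamma (52.1, rank 14433) had a pooled promoter summit, against 54.2% of all protein-coding genes. eIF2Balpha had one in replicate 2 only, and eIF2Bdelta and eIF2Bepsilon in replicate 3 only.

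eIF2D, which handles initiator tRNA outside the eIF2 route, had an IDR peak (3R, 29151639 to 29152018) that the replicates ranked unequally. It had rank 1095 in replicate 2, rank 4816 in replicate 3 (signal 35.4) and rank 1860 in the pooled list (signal 130.6), with the summit at -35 bp. The 2445 highest peaks of replicate 3 do not hold it. eIF2A showed the other order of ranks, with 60.8 in replicate 2 (rank 3777) and 52.9 in replicate 3 (rank 2028), and stood at 107.8 in the pooled list (rank 2850).

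eIF1 and eIF6 act on the small and the large ribosomal subunit, eIF1 in the choice of the start codon and eIF6 in keeping the subunits apart. The region upstream of eIF1 held 2 IDR summits. The higher one (3L, 3222886 to 3223103) had 249.7 in replicate 2 (rank 121), 168.8 in replicate 3 (rank 141) and 429.5 in the pooled list (rank 119). It lay at -349 bp from eIF1, but at -32 bp from the ribosomal protein gene RpL28, whose start is 381 bp away on the opposite strand, and within 500 bp of snoRNA:Or-CD11a. The lower summit lay at -149 bp from eIF1 and -232 bp from RpL28. It had 68.9 in replicate 2 (rank 2749), 42.7 in replicate 3 (rank 3196) and 125.8 in the pooled list (rank 2031).

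For eIF6 (2R, 23850188 to 23850567) the signals were 135.0 in replicate 2 (rank 538), 93.9 in replicate 3 (rank 583) and 237.3 in the pooled list (rank 494). The summit was at -77 bp from eIF6 and 48 bp inside asRNA:CR45928 on the opposite strand. eIF1A, which works with eIF1, had 77.9 in the pooled list (rank 5795). The subunit-joining factor gene eIF5B had 95.3 (rank 3763) and eIF5, the partner of eIF2 that triggers its GTP hydrolysis, 52.7 (rank 14069). The eIF5 summit lay at -241 bp from its TSS and equally near to a start of another gene. An IDR summit inside an intron of eIF5B (signal 221.7, rank 568) lay 21927 bp from its TSS and is not a promoter peak.

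Neither of the 2 release factor genes had an IDR summit, against 12.0% of all protein-coding genes. eRF3, the GTPase partner, had 79.8 in replicate 2 (rank 1898), 44.0 in replicate 3 (rank 2982) and 98.3 in the pooled list (rank 3523). The pooled summit of eRF3 lay at -297 bp from a TSS and 117 bp from one of SC35. The summits behind the replicate 2 and replicate 3 values lay at -220 and -131 bp, so the values need not belong to a single peak. eRF1, which reads the stop codon, had 47.8 in replicate 2 (rank 6775), 34.1 in replicate 3 (rank 5256) and 72.9 in the pooled list (rank 6725).

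Some gene pairs whose symbols differ only in a closing number had a peak at both copies and some at 1. Both had a pooled promoter peak for eIF4G1 and eIF4G2 (104.1 and 101.2) and for eEF1alpha1 and eEF1alpha2 (178.4 and 55.1). In the pooled list eIF3d1 had a signal of 64.6 and eIF3d2 none, eIF3g1 46.7 and eIF3g2 none, and eIF4H1 57.4 and eIF4H2 none. Both were present at eIF3f1 (75.4) and eIF3f2 (47.8), with the eIF3f2 summit 333 bp downstream of its TSS. The 7 genes with no promoter summit in any of the 4 lists were eIF3d2, eIF3g2, eIF4E3, eIF4E4, eIF4E5, eIF4E7 and eIF4H2. Over all protein-coding genes 36% had none. Whether reads could be placed equally well on these copies is not known from the peak lists.

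The IDR list was derived from the replicate and pooled lists, so its selection itself favours peaks present in both replicates. Each of the 12 IDR summits had a summit within 100 bp in both replicate lists, at a median distance of 11.5 bp in replicate 2 and 12.5 bp in replicate 3. Over all IDR peaks these medians were 12 and 10 bp. Among the 2445 highest peaks of replicate 2 were 11 of the 12, and among those of replicate 3 were 9. For all IDR peaks the shares were 82.4% and 80.2%. In all, 3 members (eIF2Balpha, eIF3g1 and eIF4E6) had a promoter summit in replicate 2 and none in replicate 3, and 7 (eEF1delta, eIF2Bdelta, eIF2Bepsilon, eIF2beta, eIF3e, eIF3f2 and eIF4B) the reverse. Of all 13945 protein-coding genes, 7436 had a promoter summit in replicate 2, 7427 in replicate 3 and 6082 in both lists.

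**Figure D2:**
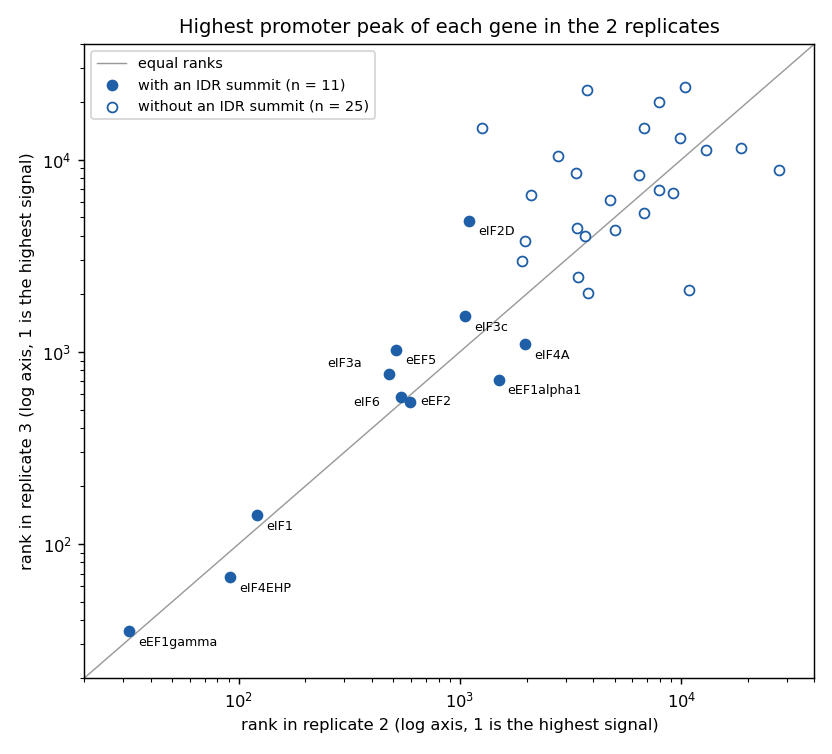
Rank of the highest promoter peak in replicate 2 (x) and replicate 3 (y), both on log axes with 1 for the highest signal, for the 36 members with a promoter peak in both lists; filled points have an IDR summit (11) and open points do not (25). Filled points lie near the line of equal ranks, which the IDR selection itself favours. Among them eIF2D is farthest from it, at ranks 1095 and 4816. The replicate 3 point of eIF3c (rank 1529) is its highest promoter peak there. The replicate 3 summit nearest to its IDR summit has rank 4430.

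Summits at these genes lay close to the start site. The highest IDR summit was within 100 bp of a TSS at 9 of 11 members (81.8%), against 39% of the 1678 protein-coding genes with an IDR summit. The exceptions were eIF1 and eIF4EHP, whose summits are shared with divergent genes. The median position was -44 bp for the members and -117 bp for all these genes. In the pooled list the highest summit was within 100 bp at 28 of 42 members (66.7%), against 42.6% of 7555 genes, and the medians were -31.5 bp and -78 bp. Upstream positions made up 29 of the 42 (69%) and 70.3% of the 7555. A summit shared by neighbours counts for each gene, including the one farther away. In the IDR list 27.3% of the highest summits at members were shared with another protein-coding gene, against 59.5% at all protein-coding genes. In the pooled list these shares were 40.5% and 43.4%. Whether sharing accounts for the difference in position was not tested. Member peaks nearest to the limit of 500 bp were those of eIF3l (-457 bp) inside it and, outside it, of eIF2Bdelta, whose nearest pooled summit lay at -758 bp. For IDR summits alone, eIF2Bbeta had its nearest at -681 bp.

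**Figure D3:**
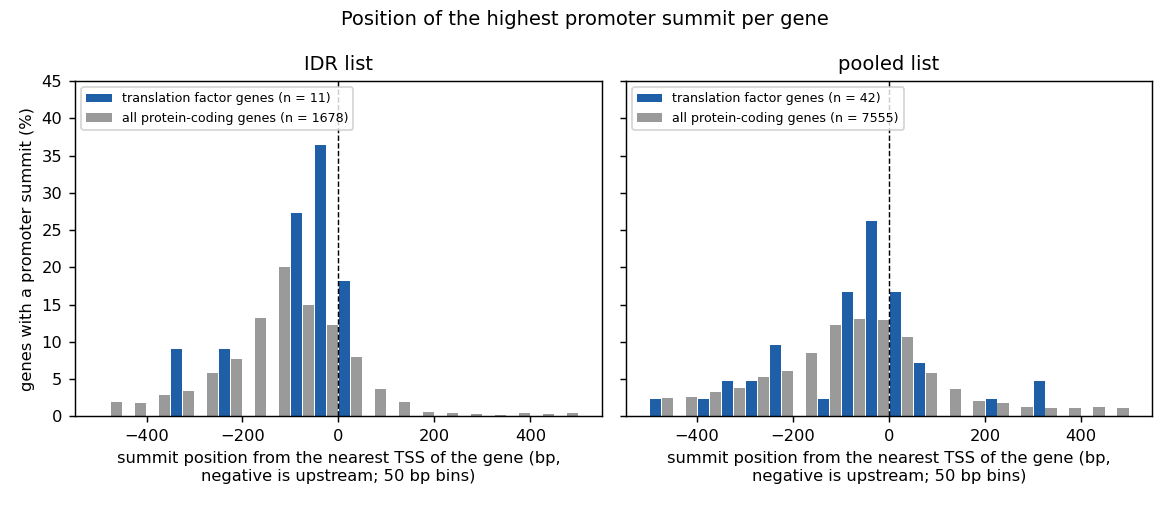
Position of the highest promoter summit per gene relative to its nearest TSS, in bins of 50 bp, as a percentage of the translation factor genes (left bar of each pair) and of all protein-coding genes (right bar) with a promoter summit, in the IDR list (11 and 1678 genes) and the pooled list (42 and 7555 genes). The bars for translation factor genes are highest between -50 and 0 bp, at 36.4% in the IDR list.

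Promoter peaks were shared with other genes at part of the members. In the IDR list the highest summit of 4 of 11 members lay within 500 bp of a TSS of another gene (36.4%), against 62.6% of all protein-coding genes with an IDR summit, and in all 4 cases that gene ran on the opposite strand. At eIF1, eIF3a and eIF4EHP (27.3%) the other gene was protein-coding, against 59.5% of all protein-coding genes with an IDR summit. Its start was the nearer one at all 3 (27.3%), against 29.4%. At eIF6 the start of asRNA:CR45928 was also nearer, 48 bp from the summit. In the pooled list 18 of 42 (42.9%) were shared, against 46.4%.

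Among sequences at the 12 summits, the Dref motif TATCGATA lay within 50 bp at 2 (eEF1gamma and eIF4A; 16.7%), compared with 49 of the 1199 other promoter IDR summits (4.09%). Within 100 bp it lay at 5 of 12 (41.7%), against 8.92%. From 250 bp before to 50 bp after any TSS, a window added after the others were read, 16 of 54 members (29.6%) held it, against 10.2% of all protein-coding genes. With an IDR summit these were 5 of 11 members (eEF1gamma, eIF3a, eIF3c, eIF4A and eIF6), against 17.7% of all protein-coding genes with an IDR summit. Without one they were 11 of 43 (25.6%). Ribosomal protein genes held it in 28 of 92 cases (30.4%). In the same window 17 of 54 members (31.5%) held CANCNCTA, against 18.4% of all protein-coding genes, and 9 (16.7%) held GGTCACAC, against 8.71%. Of the 11 members with an IDR summit, 5 held CANCNCTA and 1 GGTCACAC. The shares of all protein-coding genes with an IDR summit were 32.6% and 14.5%.

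CANCNCTA was within 50 bp of 3 of 12 summits (eEF2, eIF3c and eIF4A; 25%), against 7.09% of the other promoter IDR summits, and GGTCACAC, the motif of M1BP, of 1 (eEF1alpha1; 8.33%, against 3.09%). Within 100 bp the shares were closer, at 25% against 17.3% for CANCNCTA and 8.33% against 6.42% for GGTCACAC. TATAAA was within 50 bp of 2 (16.7%, against 23.2%), and within 100 bp of 5 (41.7%, against 36.4%), so the direction turned with the window. Within 50 bp GAGAG was found at 1 (8.33%, against 9.92%), and CAGCTG and the Zelda core CAGGTA at 0 (against 5.59% and 1.75%). With 12 summits, a share moves by 8.33 percentage points for each one. The 8-mer AAATAAAT, which had the largest excess over flanking sequence in percentage points, though not as a ratio, at the 2433 IDR summits elsewhere (8.14%, against 3.82% of flanks), was within 50 bp of 1 member summit, that of eIF4EHP. All were sought on both strands, and TATAAA can overlap A- and T-rich 8-mers. GC content within 50 bp was 41.9% ± 11.7 (SD over 12 summits) at members, against 35.2% ± 11.2 at the other 1199. It ran from 20.8% at the lower eIF1 summit to 52.5% at eEF1gamma, eEF1alpha1 and the higher eIF1 summit.

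CTTT on the sense strand with its C within 5 bp of a TSS was found at 7 of 54 members (13%), against 58 of 92 ribosomal protein genes (63%) and 8.07% of all protein-coding genes. Of the 7 members, 4 had an IDR summit (eEF1alpha1, eEF2, eEF5 and eIF4A, of 11 such members) and 3 did not (eIF3f1, eIF3i and eIF3m, of 43). Genes with an IDR summit that are neither translation factor nor ribosomal protein genes had it in 9.79% of 1594 cases. With the C within 10 bp, 5 of 11 members with an IDR summit (45.5%) and 11 of 43 without one (25.6%) had it, against 18.5% of those 1594 genes. A match describes the letters and not a site.

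Other translation genes, outside the symbol rule, were counted for comparison. Of 26 such genes 6 had an IDR promoter summit (23.1%, interval 8.97 to 43.6%) and 22 a pooled one (84.6%). They were larp, a binder of messages with terminal pyrimidine tracts (rank 90), the ribosomal scaffold gene Rack1 (rank 168), the DEAD-box helicase gene bel (821), the gene nero for the hydroxylase that completes hypusine on eEF5 (1280), the ribosome rescue gene pelo (1707) and the poly(A)-binding protein gene pAbp (1837). Thor, the repressor of eIF4E, had a pooled signal of 63.4 (rank 9138). Cytosolic ribosomal protein genes stood at 73 of 92 in the IDR list (79.3%, 69.6 to 87.1%) and at 88 of 92 in the pooled list. The shares of all protein-coding genes were 12.0% and 54.2%. No test between these lists was made.

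**Figure D4:**
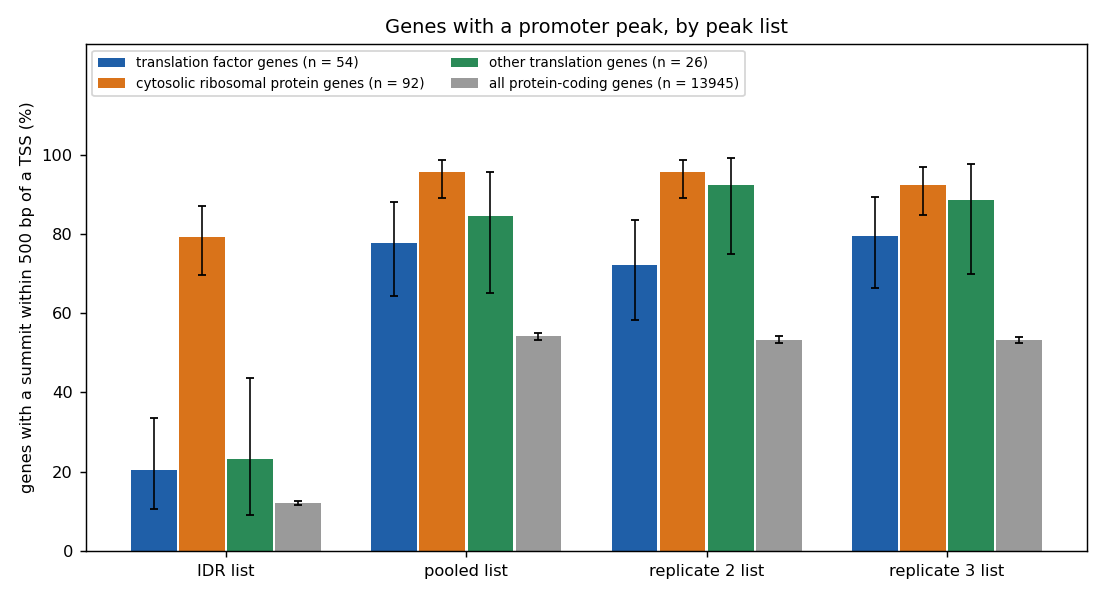
Percentage of genes with a summit within 500 bp of a TSS in each peak list, for translation factor, cytosolic ribosomal protein, other translation and all protein-coding genes; error bars are exact 95% binomial intervals. In the IDR list the bars stand at 20.4%, 79.3%, 23.1% and 12.0%, and in the pooled list at 77.8%, 95.7%, 84.6% and 54.2%.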

How the data were processed

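ChIP-seq peaks of GFP-tagged CG7271 were analysed in 2 replicates, from chromatin sonicated to fragments of 200 to 800 bp. Per the deposited notes, each replicate's peaks were called by the authors on dm6 against a control alignment (not analysed here), the pooled list on both alignments, and the IDR list was derived from the other 3. Caller, aligner and IDR threshold: not given in the sources used here. Each deposited list holds a signal, a −log10 q value (not used here) and a summit per peak. In the pooled list 98.7% of peaks have 1 width of 380 bp, so widths carry little information. Read depth is unknown.

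Genes and 5' ends came from Ensembl release 115 and sequence from RefSeq, both on the dm6 assembly. Summits were assigned with Python 3.11.15, pandas 2.3.3 and scipy 1.17.1, and the assignment was tested on simulated summits. Genes named are every member with an IDR summit, those sharing it, the highest of each other group, members with no pooled summit and the 5 just below the IDR list. Other genes given with values were chosen after those were seen. The members and lists were chosen with earlier results of these data known. Of 27 other translation genes, Tor had no match and was left out. With 1 group, no test was made, and counts stand beside the share of all protein-coding genes.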

Additional observations from a re-analysis of the deposited data

How the results depend on the processing

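The count of 11 members with an IDR summit was 10 with summits within 200 bp, 12 within 1000 bp, 10 with peaks that overlap the TSS, 10 with 1 TSS per gene (without eEF1alpha1), 9 with each peak given to the nearest protein-coding gene only (without eIF3a and eIF4EHP) and 8 among the 1222 highest IDR peaks. The share of all protein-coding genes under these settings ran from 6.33% to 13.7%. With the 2445 highest peaks of 1 replicate in place of the IDR list, leaving out replicate 2 gave 12 and leaving out replicate 3 gave 15, against 12.1% and 12.2% of all genes. Without replicate 3, eIF2gamma, eIF4E1, eIF4G1 and eRF3 were added. Without replicate 2, eIF2A and eIF3f1 were added and eIF2D was lost. The median position of -44 bp was -39.5 bp with summits within 200 bp and with overlapping peaks, -56 bp within 1000 bp, -60.5 bp among the 1222 highest peaks, -35 bp by nearest gene and -51.5 bp with 1 TSS per gene. It was -45.5 to -44 bp when a replicate was left out. Members with CTTT at the TSS rose to 16 of 54 (29.6%, against 14.9% of all genes) with its C within 10 bp. The wider windows by construction admit more matches. The pooled count of 42 ran from 32 to 43, with 39.5% to 63.5% of all genes, and the count of 36 in both replicates from 29 to 39, with 27.3% to 52.9%. No paired analysis was possible because both samples belong to 1 group. Read depth is not in the files, so a gene without a peak is one without a peak among the 30000 listed, not one shown to be unbound.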
